A study of Mus musculus with 14 samples.

Results

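A set of 10 genes known to arm the mammary epithelium against bacteria were followed in the libraries: Lcn2, Ltf, Slpi, Lyz1, Lyz2, Saa1, Saa2, Cd14, Lbp and Pigr. They were chosen by gene symbol, with earlier results of these data known. Of these 10 genes, 8 were measured among the 16124 genes of the table, and Saa1 and Saa2 were not analysed here. RNA came from mammary epithelial cells of 7 wild-type (WT) and 7 Usp22 OE/OE (OE) female mice, all nulliparous and aged 3.5 months, with 1 library per mouse and a WT and an OE littermate in each of the pairs numbered 1, 3, 4, 5, 6, 7 and 8. The OE mice were homozygous for Rosa26KI-Usp22, a Flag- and Myc-tagged Usp22 cDNA behind the CAGGS promoter at the ROSA26 locus, and had lost its STOP cassette through Zp3-cre, a deletion in the female germ line. Usp22 was therefore overexpressed in all tissues, stromal and immune cells included, and not in the epithelium alone. Organoids were released from the glands by collagenase and hyaluronidase, separated from stroma by differential centrifugation and dispersed with trypsin into single cells, and no cell sorting was described. The comparison asked how the expression of each gene differed between littermates with and without the transgene.

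Secretory epithelia keep a first line of defence that does not need antibodies. Lipocalin 2 (Lcn2) binds the siderophores with which bacteria take up iron, lactoferrin (Ltf) binds the iron itself and is a major milk protein, lysozymes (Lyz1, Lyz2) cut the bacterial cell wall, and Slpi is a secreted inhibitor of neutrophil serine proteases. Lbp and Cd14 hand lipopolysaccharide (LPS) to the Toll-like receptor Tlr4, and Pigr, the polymeric immunoglobulin receptor, carries IgA across the epithelium into milk. Serum amyloids (Saa1, Saa2), Lcn2 and Lbp also belong to the acute-phase response, which interleukin 1, interleukin 6, NF-kB, STAT3 and C/EBP factors are known to drive. Several of these genes are used by leukocytes too: Lyz2 is a standard macrophage gene, and Lcn2 and Ltf proteins fill the granules of neutrophils.

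The promoters of the antimicrobial genes are shown first because genes that move together are described later. RefSeq promoter windows (GRCm38.p6, from 250 bases before to 50 bases after the start) were matched for 8 of the 10 genes. Cd14 and Lbp had no entry. The letters TTGCNNAA, a C/EBP-like motif searched on both strands, occurred in 10.8% of all 32851 promoters and in 6 of these 8. Of these 6, Saa1 and Saa2 had no expression values, and their windows were identical at 96.0% of the aligned bases. The 26 bases around each match are printed here 5′ to 3′ in the direction of the gene, with the match in capitals.
Lcn2: cccttcctgTTGCTCAAccttgcaca
Slpi: gaatttgtaTTGAGCAAtaggttaga
Ltf: gcaggcctaTTGGGCAAtagggtggg
Lyz1: gcccaatctTTAAGCAAtttgaaata
Saa1: gtgctcccaTTGCACAAtgagggaga
Saa2: gtgctcccaTTGCACAAtgagggaaa

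The match lay at chr2:32387939-32387964 for Lcn2, chr2:164356732-164356757 for Slpi and chr10:117293061-117293086 for Lyz1, all on the minus strand. It lay at chr9:111019208-111019233 on the plus strand for Ltf, at chr7:46743146-46743171 on the minus strand for Saa1 and at chr7:46751641-46751666 on the plus strand for Saa2. The first base of the match was 75 bases upstream of the start in Ltf and between 182 and 241 bases upstream in the other 5 genes. The Lcn2 match lay in annotated exon bases, since the exon-free part of its upstream bases was chr2:32387798-32387850 alone. The matches of the other genes lay outside annotated exons. A kB-like motif (GGGA and CC with any 4 bases between them, on both strands) was found in 20.7% of all promoters and in 1 of the 8, that of Pigr. A STAT-like motif (TTCNNNGAA) was found in 8.3% of all promoters and in 1 of the 8, again that of Pigr. A match of letters is a description of the window and not a site of binding.

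The lysozyme genes are neighbours on chromosome 10, Lyz2 at 117277331-117282321 and Lyz1 at 117287797-117292868, both on the minus strand (GRCm38, GENCODE M21). Their promoter windows were identical at 83.6% of the aligned bases. The parts of the 250 upstream bases that lie outside annotated exons are printed here for both, since the expression of these neighbours is compared below. The capitals mark the C/EBP-like match of Lyz1, at chr10:117292869-117293118, minus strand, and Lyz2, at chr10:117282322-117282522, minus strand, held no match.
Lyz1: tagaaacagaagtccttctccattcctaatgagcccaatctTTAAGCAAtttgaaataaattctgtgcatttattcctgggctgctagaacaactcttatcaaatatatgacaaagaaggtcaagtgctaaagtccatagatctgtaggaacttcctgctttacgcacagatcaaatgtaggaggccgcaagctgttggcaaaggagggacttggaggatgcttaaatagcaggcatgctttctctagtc
Lyz2: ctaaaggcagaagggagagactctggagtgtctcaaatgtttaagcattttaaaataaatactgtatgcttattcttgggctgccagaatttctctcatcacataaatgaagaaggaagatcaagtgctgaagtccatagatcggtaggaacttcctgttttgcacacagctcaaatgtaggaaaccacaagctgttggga

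The messages of the lysozymes are close copies too, which bears on how reads were assigned to each. Both coding sequences had 447 bases, of which 22 differed (95.1% identity). The coding part of exon 1 carried 14 of these differences in 136 bases, and they stand in capitals in the sequences of Lyz1 (chr10:117292703-117292838, minus strand) and Lyz2 (chr10:117282107-117282242, minus strand).
Lyz1: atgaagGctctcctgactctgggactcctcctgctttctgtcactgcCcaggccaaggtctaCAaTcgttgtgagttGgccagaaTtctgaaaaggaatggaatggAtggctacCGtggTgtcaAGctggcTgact
Lyz2: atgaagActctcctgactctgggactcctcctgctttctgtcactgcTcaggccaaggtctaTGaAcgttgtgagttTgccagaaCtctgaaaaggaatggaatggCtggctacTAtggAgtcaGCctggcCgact

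Of all stretches of 75 bases, the length of 1 read, in the Lyz1 message, 6.22% occurred without a mismatch in that of Lyz2, and 44.7% occurred there with at most 2 mismatches. How the authors treated reads that map equally well to both genes was not given in the sources used here. The value of each lysozyme is therefore uncertain by the reads that could be assigned to either, and their sum is given beside them.

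All libraries matched their genotype, with 3500 to 5380 normalized counts of Usp22 in WT and 74950 to 144300 in OE. The libraries held between 20125106 and 41835978 fragments on genes, and WT of pairs 1 and 8 were the shallowest, with 20125106 and 22632805. The labelled cell type was present by its markers: the 8 luminal keratin, claudin and adhesion genes summed to 339000 to 563000 normalized counts in WT and to 371300 to 657100 in OE, and the 10 basal markers to 150900 to 237800 and 140800 to 251200. Macrophage markers summed to 6711 to 9819 in WT and 5775 to 13720 in OE, and fibroblast, endothelial and adipocyte markers were also present. The adipocyte score, the mean log2 level of 8 markers, was lower in OE in 6 of 7 pairs (-0.82 ± 0.89, SD, exact sign-flip p = 0.0625), and the fibroblast score in 5 of 7 (-0.34 ± 0.47, exact sign-flip p = 0.125). The WT library of pair 1 stood apart in lymphocyte markers, with a score of 7.17 where the other WT mice had 4.27 to 5.48, and had the highest plasma cell score of all mice (10.98). The part of these cells in the values that follow was not tested, beyond leaving out pair 1. No measured marker was at 0 in all libraries. Of 12 neutrophil markers only S100a8, Csf3r and Mmp9 were among the genes left by the authors' fragment filter. These summed to 54.3 to 192.5 in WT and 46.0 to 121.5 in OE. In such a mixed preparation, fewer cells of a type and less RNA per cell cannot be told apart.

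Expression was compared within littermate pairs by limma, on the log2 scale after adding 1 to each normalized count, and a gene was called at an unadjusted p of 0.05 or less, the threshold of the study. Of all 16124 genes, 3.81% were called, 1.85% as lower in OE, and 0.0124% had an adjusted p under 0.05. Of the 8 antimicrobial and acute-phase genes, 1 was called, Lyz1, which was lower in OE. No gene of the 8 was called as higher, and the adjusted p over all genes was 0.9997 for each. The fitted log2 change was below 0 for all 8, with a median of -0.21 against -0.0015 over all genes. For 4 of the 8 (Lcn2, Ltf, Cd14 and Pigr) that sign turned when 1 pair was left out, so it is a description of the 7 pairs.

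**Figure D1:**
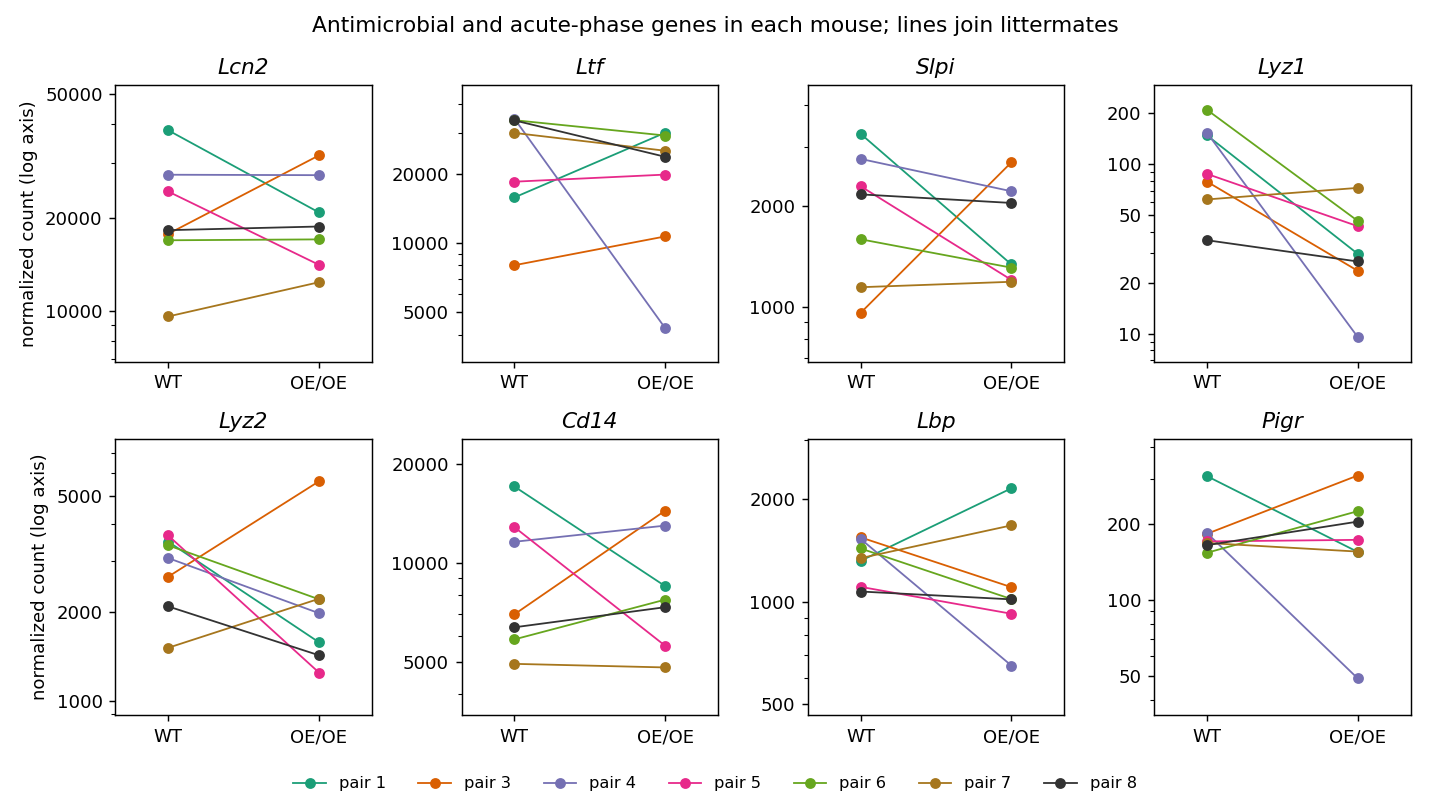
Normalized counts (log axis, a separate range in each panel) of the 8 genes in WT and OE mice, where each point is 1 mouse and each line joins the littermates of 1 pair. Lyz1 fell in 6 of 7 pairs, while the lines of the other genes cross, as those of Slpi do in pair 3 (957 in WT and 2703 in OE).

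The iron-binding proteins were among the most abundant messages of the preparation. Per kb of exon, the mean normalized count of Lcn2 was 8027 and that of Ltf 6589, which placed them above 98.9% and 98.7% of all genes, where the median was 132.3. Lcn2 reached 9592, 18220 and 38320 normalized counts in WT (lowest, median and highest mouse) and 12370, 18730 and 31760 in OE. The ranges overlapped almost fully. WT of pair 1 was the only mouse of its genotype above the highest OE mouse, and WT of pair 7 (9592) lay below the lowest OE mouse. The log2 difference was -0.06 ± 0.20 (SE, n = 7 pairs; limma p = 0.768, exact sign-flip p = 0.891). Lcn2 was lower in OE in 3 pairs and higher in 4, from -0.88 in pair 1 to 0.84 in pair 3 on the log2 scale.

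Ltf had 8005, 30060 and 34700 normalized counts in WT and 4269, 23680 and 30120 in OE. The groups overlapped, but 3 WT mice lay above every OE mouse and the OE mouse of pair 4 lay below every WT mouse. That mouse had 4269 normalized counts beside 34700 in its littermate, a log2 ratio of -3.02, while the ratios of the other pairs lay between -0.53 and 0.93. The fitted difference was -0.37 ± 0.39 (limma p = 0.366, exact sign-flip p = 0.625), and without pair 4 it was 0.07. In the same pair the endothelial marker score fell by 1.73 on the log2 scale and the adipocyte score fell by 2.36, and their part in the Ltf value was not tested.

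Slpi, the protease inhibitor, had 957, 2167 and 3290 normalized counts in WT and 1186, 1337 and 2703 in OE. Both the lowest WT mouse and the highest OE mouse came from pair 3. While 2 WT mice lay above the OE range, those of pairs 3 and 7 (957 and 1143) lay below it. The log2 difference was -0.20 ± 0.27 (limma p = 0.4905, exact sign-flip p = 0.547), with 5 of 7 pairs lower in OE. The value depended on single pairs. Without pair 3 the log2 difference was -0.48 (limma p = 0.0266, exact sign-flip p = 0.0625), and without pair 1 or 5 it was -0.012 or -0.073 and not called.

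Lyz1 was the member with the clearest difference. It had 35.7, 87.8 and 209.6 normalized counts in WT (mean 110.9 ± 61.3, SD, n = 7) and 9.59, 29.7 and 72.6 in OE (35.9 ± 20.3). The groups overlapped, yet 5 of 7 WT mice lay above the highest OE mouse and 4 of 7 OE mice lay below the lowest WT mouse. The fitted level was 3.03-fold higher in WT (log2 difference -1.60 ± 0.43, limma p = 0.004216, adjusted p = 0.9997, exact sign-flip p = 0.03125).

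Within pairs, Lyz1 was lower in OE in 6 of 7, and 6.79% of all genes were lower in at least 6. The largest fall was -3.87 on the log2 scale in pair 4, and pair 7 alone rose, by 0.22. These values rest on 23 to 246 fragments per WT library and 10 to 80 per OE library, so Lyz1 is the least deeply covered of the 8 genes. Leaving out any pair kept the log2 difference between -1.90 and -1.22, with limma p between 0.001347 and 0.01338. When the macrophage score entered the fit beside genotype and pair, an alternative chosen after seeing the data, the difference was -1.29 ± 0.42 and Lyz1 was still called.

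Lyz2, the lysozyme of macrophages, was far more abundant, with 1963 normalized counts per kb against 58.1 for Lyz1. It had 1515, 3068 and 3664 normalized counts in WT and 1248, 1989 and 5600 in OE. The highest mouse of all 14 was the OE mouse of pair 3, and 2 OE mice lay below the WT range. The log2 difference was -0.41 ± 0.28 (limma p = 0.1824, exact sign-flip p = 0.25), with 5 of 7 pairs lower in OE. Without pair 3 the difference was -0.65 (limma p = 0.0219, exact sign-flip p = 0.09375), and without pair 5 or 1 it was -0.22 or -0.28 and not called.

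As a share of both lysozymes, Lyz1 was 3.64% ± 1.44 (SD, n = 7) in WT, from 1.67% to 5.82%, and 1.87% ± 1.15 in OE, from 0.419% to 3.34%. The share was lower in OE in 5 of 7 pairs, and the difference within pairs, -1.77 ± 1.98 percentage points (SD), was not larger than its spread (exact sign-flip p = 0.09375). The lowest shares, 0.419% and 0.48%, were those of the OE mice of pairs 3 and 4. The sum of both lysozymes had a log2 ratio of -0.43 ± 0.92 (SD, exact sign-flip p = 0.2344). A different fall of Lyz1 and Lyz2 was thus not established: their log2 ratios differed by -1.19 ± 1.44 (SD, exact sign-flip p = 0.09375).

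**Figure D2:**
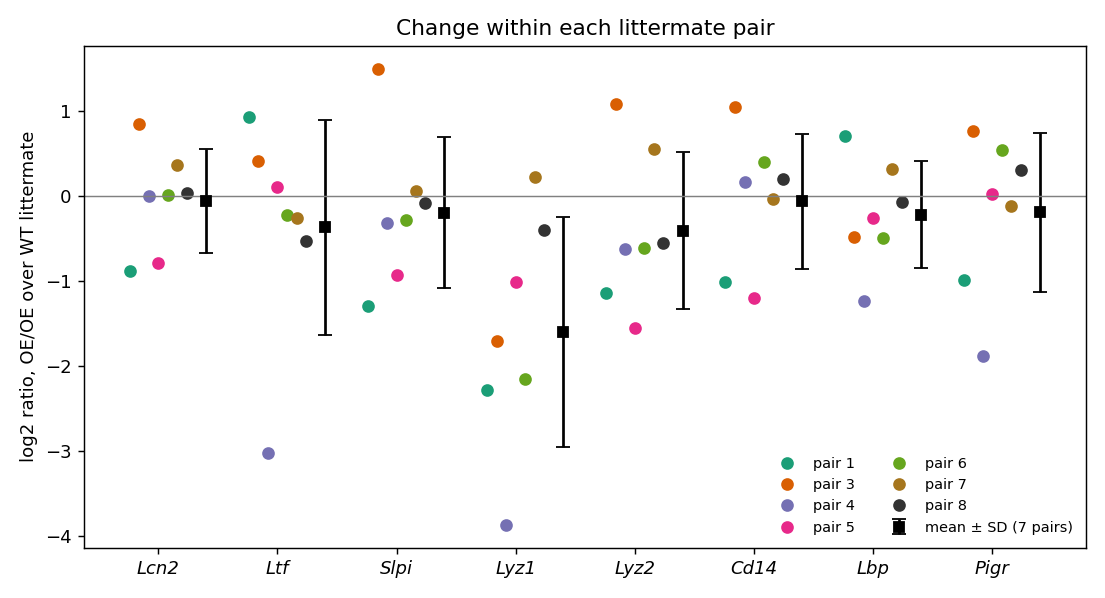
Log2 ratio of OE over the WT littermate (vertical axis) for each of the 8 genes, where coloured points are the 7 pairs and black squares with bars are the mean ± SD. The points of Lyz1 lie below 0 in 6 of 7 pairs (mean -1.60), and pair 3 lies highest for Lcn2, Slpi, Lyz2, Cd14 and Pigr.

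The LPS receptor chain had 2 measured genes among the 8. Cd14, the co-receptor, had 4933, 6981 and 17140 normalized counts in WT and 4811, 7743 and 14460 in OE, and its level per kb, 5250, lay above 98.4% of all genes. The groups overlapped almost fully, with 1 mouse of each genotype outside the range of the other. The log2 difference was -0.06 ± 0.25 (limma p = 0.8091, exact sign-flip p = 0.9375), from -1.20 in pair 5 to 1.05 in pair 3.

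Lbp, which loads LPS onto Cd14, had 1073, 1345 and 1548 normalized counts in WT and 650, 1020 and 2157 in OE. Its WT mice were the most alike of all 8 genes, with an SD of 0.21 on the log2 scale, while the SD was 0.57 in OE. Although 4 of 7 OE mice lay below every WT mouse, those of pairs 1 and 7 lay above every WT mouse. The log2 difference was -0.22 ± 0.20 (limma p = 0.2952, exact sign-flip p = 0.391), with 5 of 7 pairs lower. Without pair 4 it was -0.05 and without pair 1 it was -0.37, not called in either case.

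Pigr, the IgA carrier, was low in these nulliparous glands, at 46.1 normalized counts per kb, above 30.8% of all genes. It had 153.4, 170.1 and 308.4 normalized counts in WT and 48.9, 172.6 and 310.0 in OE. Most mice of both genotypes lay close together, apart from WT of pair 1 (308.4), OE of pair 3 (310.0) and OE of pair 4 (48.9). The log2 difference was -0.19 ± 0.30 (limma p = 0.5298, exact sign-flip p = 0.625).

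The spread between mice was wide for these genes. The SD of the log2 level was above the median of all genes in 6 of 8 in WT (median 0.35) and in 8 of 8 in OE (median 0.45). In WT it was largest for Lyz1 (0.87) and Ltf (0.80), and the highest mouse had 5.88 times the lowest for Lyz1, 4.33 times for Ltf and 3.99 times for Lcn2. In OE it was largest for Ltf (1.03) and Lyz1 (0.89). Lbp and Pigr were the only ones at or under the median in WT.

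Litters were then compared, by correlating the WT mouse with its OE littermate over the 7 litters. Over all genes the median Pearson r was 0.60, and 33.2% had a positive r at an unadjusted exact p of 0.05 or less (permutation over all pairings). None of the 8 genes did, and all 8 lay below the median of all genes, with a median of -0.11. Lcn2 had the highest value, r = 0.44 (Spearman rho 0.46; exact p = 0.3317 and 0.3024; adjusted 0.4984 over all genes), and r was 0.016 without the 2 litters farthest from the median. Cd14 (0.21) and Ltf (0.05) followed, and Lbp (-0.09), Pigr (-0.14), Slpi (-0.18), Lyz2 (-0.19) and Lyz1 (-0.19) were negative. For these 7 genes the exact p was between 0.6016 and 0.8867 and Spearman rho between -0.57 and 0.39 (exact p 0.2 to 1.0). Without the 2 farthest litters their r ran from -0.94 for Lyz2 to 0.77 for Cd14, so the values depended on single litters. With 7 litters such values have a wide error, and no gene of the 8 is shown to be unrelated between littermates. Leaving out 1 litter in turn kept the count at 0 and the median between -0.16 and 0.11.

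**Figure D3:**
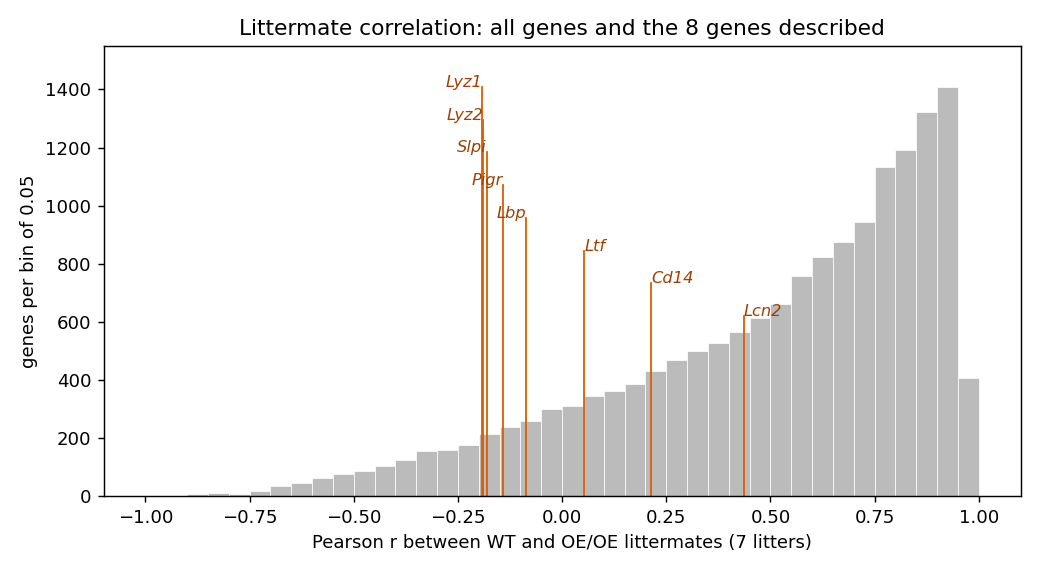
Histogram of Pearson r between WT and OE littermates over 7 litters for all 16124 genes (grey, genes per bin of 0.05), with a vertical line for each of the 8 genes; line heights carry no value. All 8 lie below the median of all genes (0.60), from Lyz1 (-0.19) to Lcn2 (0.44).

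Lcn2, Cd14 and Slpi varied together from mouse to mouse. Over the 14 libraries the log2 levels of Lcn2 and Cd14 had r = 0.95, and the value was 0.93 in WT, 0.99 in OE and 0.93 over the 7 pair ratios. These correlations describe libraries that share depth, preparation and litter, and are given with no p. Slpi followed Lcn2 (r = 0.84 over 14 libraries, 0.95 over pair ratios) and Cd14 (0.81 and 0.88). Lyz2 moved with Lcn2 within pairs (0.94) but less over all libraries (0.63). Ltf did not rise with this group, with r of -0.41 to Lcn2 and -0.47 to Cd14 over the 14 libraries. Of the measured genes with a C/EBP-like match printed above, Lcn2 and Slpi belonged to this group, and Ltf and Lyz1 did not. The match of Lcn2 lay in annotated exon bases. Cd14 had no promoter entry and was not searched. The part of the motif in these correlations was not tested.

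**Figure D4:**
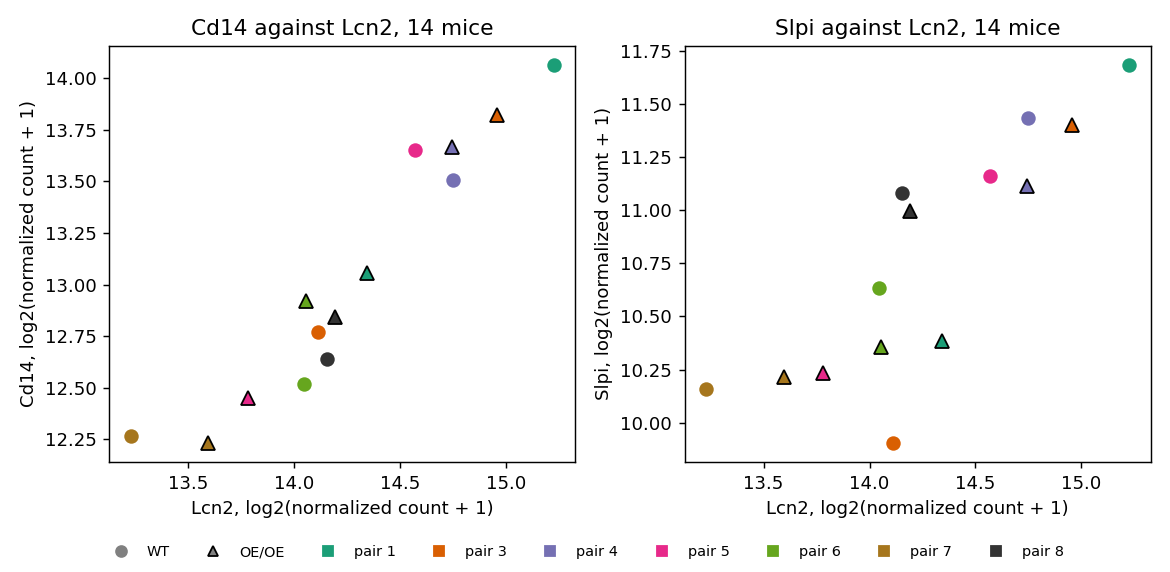
Log2(normalized count + 1) of Cd14 (left) and Slpi (right) against Lcn2 in 14 mice, where circles are WT, triangles OE, and the colour gives the pair. WT of pair 1 (38320 normalized counts of Lcn2) lies at the upper right and WT of pair 7 (9592) at the left in both panels, and r was 0.95 for Cd14 and 0.84 for Slpi.

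For each gene, the 3 most alike genes over the 14 libraries were named (Pearson r of log2 levels, mean of at least 50 normalized counts). Cd14 led for Lcn2, before Rnf180 and Lck (both 0.91), and Lcn2 led for Cd14, before Zfp623 and Liph (both 0.94). Lcn2 also led for Slpi, before Smim3 and Gclm (both 0.82). Ltf was most like Ntn4 (0.93), Spata6 and Ednrb (both 0.91), and Lbp most like Clec3b (0.92), Igfbp6 (0.91) and Tgfbi (0.90). Pigr was most like the ceruloplasmin gene Cp (0.90), Prelp (0.89) and Foxi1 (0.88). Lyz2 was most like the macrophage genes Ctss (0.80) and C1qb (0.79), with Nmnat3 (0.80) between them, and Lyz1 had the weakest likeness, to Lsp1 (0.78), Kcne3 (0.74) and Trim35 (0.73).

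The genes were then set beside marker scores, the mean log2 level of a marker list that holds none of them. Over the 7 pair ratios, the luminal progenitor score (Kit, Elf5, Aldh1a3 and 7 other genes) was correlated with 3 of the 8 genes at an unadjusted exact p of 0.05 or less, against 7.15% of all genes. Cd14 followed it most closely, with r = 0.98 (Spearman rho 0.96; exact permutation p = 0.0003968 and 0.002778, adjusted p = 0.457 over all genes). The Cd14 value was 0.95 without the 2 pairs farthest from the median and 0.97 to 0.99 with each pair left out. In pair 3 the score rose by 0.65 on the log2 scale and Cd14 by 1.05, while in pair 5 the ratios were -0.48 and -1.20.

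Lcn2 (r = 0.87, rho 0.64; exact p = 0.01468 and 0.1389) and Slpi (r = 0.86, rho 0.64; exact p = 0.01131 and 0.1389) were the others, each with an adjusted p of 0.657 and with r of 0.65 and 0.68 without the 2 farthest pairs. Without pair 1, 3 or 5, 1 gene was left at this threshold. The score itself differed between genotypes by 0.04 ± 0.40 on the log2 scale (SD, n = 7 pairs, exact sign-flip p = 0.7656), being lower in OE in 3 pairs. The part of luminal progenitor cells in these values was not tested.

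Over litter means the macrophage and basal scores were correlated with 0 of the 8 genes at an unadjusted exact p of 0.05 or less. Their shares over all genes are not given. The luminal progenitor score was correlated with 1 of the 8 at this threshold, against 6.57% of all genes. This was Ltf, with r = -0.91 (rho -0.89; exact permutation p = 0.002976 and 0.0123, adjusted p = 0.6385) and -0.77 without the 2 farthest litters. Ltf was thus lowest in the litter where the score was highest, that of pair 3, and highest in the litter where it was lowest, that of pair 6.

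**Figure D5:**
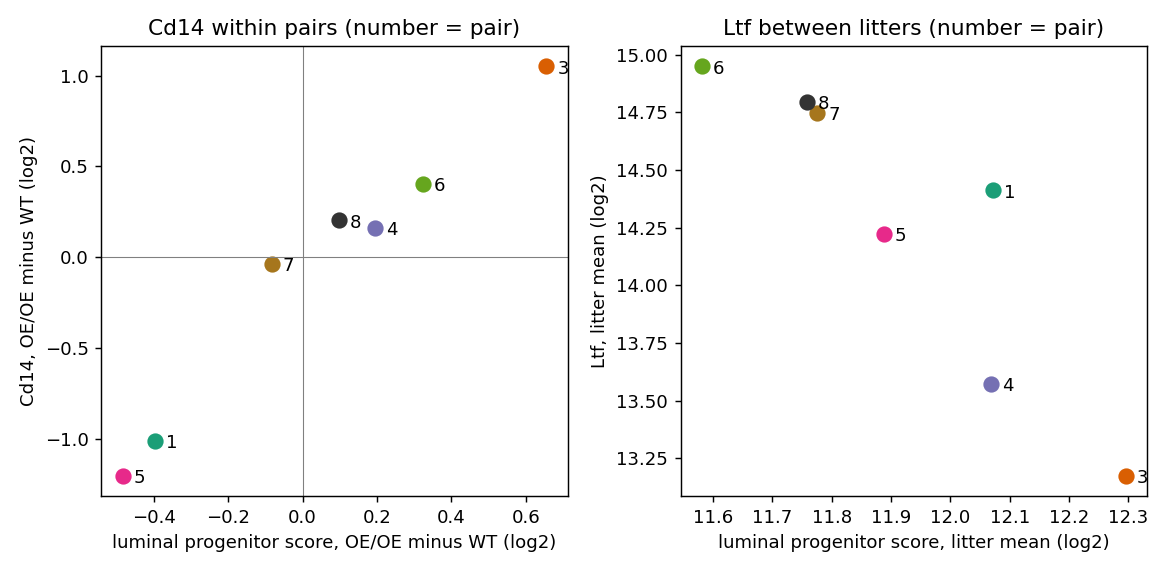
Left, the pair log2 ratio of Cd14 against that of the luminal progenitor score; right, the litter mean of the log2 level of Ltf against that of the score. Numbers and colours give the 7 pairs; r was 0.98 on the left and -0.91 on the right.

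The macrophage score was correlated over pair ratios with 1 of the 8 genes, against 4.23% of all genes. That gene was Lyz2 (r = 0.78, rho 0.89; exact permutation p = 0.03512 and 0.0123, adjusted p = 0.9879; 0.86 without the 2 farthest pairs), and the r of the other 7 lay between 0.37 and 0.71. Among these, Slpi (r = 0.71, rho 0.86; exact p = 0.0631 and 0.02381) and Lcn2 (r = 0.69, rho 0.86; exact p = 0.08631 and 0.02381) passed the threshold by rho alone, and Lyz1 had r = 0.56 (rho 0.61; exact p = 0.1885 and 0.1667). The share of all genes that passed by rho is not given. All 14 macrophage markers were measured, and the score was lower in OE in 4 of 7 pairs, by 0.15 ± 0.37 (SD) on the log2 scale (exact sign-flip p = 0.3125). This score was also added to the fit after seeing the data. The log2 difference was then -0.11 for Lyz2, -0.10 for Ltf and -1.29 for Lyz1, and of these Lyz1 alone was called. In the same fit the differences of Lcn2, Slpi, Cd14 and Pigr turned positive and that of Lbp stayed negative, none of them called. The score came from the same libraries, and the part of macrophages in these values was not tested. The basal score was correlated with 0 of the 8 genes at an unadjusted exact p of 0.05 or less (4.47% of all genes), and the highest r was 0.74, for Cd14 (rho 0.68; exact p = 0.05417 and 0.1095, adjusted p = 0.8996), which was -0.07 without the 2 farthest pairs.

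Scores of further cell types were chosen after seeing the data. The endothelial score was correlated with 2 of the 8 genes, against 28.4% of all genes, and so was the adipocyte score, against 27.0%. They were Ltf (endothelial r = 0.96, rho 0.68, exact permutation p = 0.008135 and 0.1095; adipocyte r = 0.92, rho 0.75, p = 0.003373 and 0.06627) and Lbp (endothelial r = 0.89, rho 0.64, exact p = 0.0123 and 0.1389; adipocyte r = 0.90, rho 0.79, p = 0.01607 and 0.04802). Without the 2 farthest pairs the endothelial values were 0.26 and 0.24 and the adipocyte values 0.61 and 0.23, so these relations rested largely on those pairs. The hormone-sensing luminal score was correlated, against 6.87% of all genes, with Cd14 (r = -0.85, rho -0.86, exact p = 0.01111 and 0.02381) and Slpi (r = -0.76, rho -0.54, p = 0.0381 and 0.2357).

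The neutrophil score rested on 3 genes with few counts, S100a8, Csf3r and Mmp9. S100a9, Mpo, Elane, Ly6g and the other listed markers were absent from the genes left by the authors' fragment filter. Whether the score follows neutrophils was not tested. It was correlated with 3 of the 8, against 3.99% of all genes. These were Cd14 (r = 0.87, rho 0.86, exact p = 0.01766 and 0.02381), Lcn2 (r = 0.80, rho 0.79, p = 0.03234 and 0.04802) and Slpi (r = 0.77, rho 0.79, p = 0.03056 and 0.04802), and without the 2 farthest pairs r was 0.96, 0.91 and 0.93. The lymphocyte score was correlated, against 5.02% of all genes, with Lcn2 (r = 0.82, rho 0.68, exact p = 0.02738 and 0.1095) and Cd14 (r = 0.81, rho 0.61, p = 0.03274 and 0.1667), and without the 2 farthest pairs these were -0.007 and 0.014. The luminal, fibroblast and plasma cell scores were correlated with 0 of the 8 by r at an unadjusted exact p of 0.05 or less. By rho the plasma cell score passed for Lcn2, Slpi and Lyz1 (rho 0.82 and exact p = 0.03413 for each; r = 0.70, 0.66 and 0.66, exact p = 0.08175, 0.1137 and 0.1099). Shares over all genes are not given for rho or for the luminal, fibroblast and plasma cell scores, so these counts have no background beside them. Since Cd14, Lcn2 and Slpi varied together over the pair ratios, a score that passed for more than 1 of them does not give separate relations. No adjusted p over all genes was under 0.05 in any of these families of 8 relations, and the part of these cell types was not tested.

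Other genes of the same pathways were counted in 5 lists. Of the other acute-phase genes, 21 of 27 were measured, 2 were called as lower, none as higher, and the median log2 difference was -0.15. Hp, which encodes the haemoglobin-binding haptoglobin, averaged 4748 ± 1871 normalized counts in the WT mice and 2987 ± 1268 in the OE mice (SD, n = 7). It was lower in 7 of 7 pairs (log2 difference -0.67 ± 0.20, limma p = 0.007839, exact sign-flip p = 0.01562, the smallest that 7 pairs allow). The haem-binding Hpx had 38.3 ± 12.9 and 23.6 ± 11.6 normalized counts (log2 difference -0.74 ± 0.28, limma p = 0.02807, exact sign-flip p = 0.0625) and was lower in 6 of 7. It lost the call without pair 3, 4 or 5, at log2 differences of -0.68, -0.53 and -0.64, under the study's own per-gene paired test (-0.67) and with the macrophage score in the fit (-0.60).

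Of the inflammatory cytokines, their receptors and their signalling genes, 25 of 28 were measured and 4 were called, all as lower in OE, with a median of -0.08 over the list. Il1b, an inducer of the acute phase, averaged 1137 ± 1198 normalized counts in the WT mice and 776 ± 904 in the OE mice. Although these ranges overlapped widely, it was lower in 7 of 7 pairs (log2 difference -0.69 ± 0.16, limma p = 0.001486, exact sign-flip p = 0.01562). Il17f (26.9 and 16.1 normalized counts; -0.74, limma p = 0.01577, exact sign-flip p = 0.01562; 7 of 7 pairs) and Osm, a STAT3-activating cytokine (71.1 and 49.6; -0.57, limma p = 0.02049, exact sign-flip p = 0.03125; 6 of 7 pairs), were also lower. Il6 had 7640 ± 1741 and 6068 ± 4544 (-0.60, limma p = 0.0483, exact sign-flip p = 0.07812; 6 of 7 pairs), and this call was lost under 7 of 11 alternatives and without any of pairs 3 to 8 (-0.33 without pair 4). Osm lost the call without pair 1, 5 or 6, at -0.48, -0.49 and -0.46, and with the macrophage score in the fit, at -0.46.

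Of 24 other secreted antimicrobial genes, 18 were measured and 1 was called, as higher in OE, with a median of -0.24 over the list. This was the membrane mucin Muc1, with 3078 ± 928 normalized counts in WT and 4487 ± 2266 in OE (log2 difference 0.49 ± 0.17, limma p = 0.01994, exact sign-flip p = 0.07812; higher in 6 of 7 pairs), and without pair 3 or 6 it was 0.36 or 0.41 and not called, nor was it called by the study's own per-gene paired test (0.54). All 30 genes of LPS sensing and NF-kB were measured and 0 were called by limma at an unadjusted p of 0.05 or less, with a median of 0.00. The most abundant of them were the inhibitor Nfkbia (23510 ± 16360 normalized counts in WT and 24070 ± 21030 in OE; log2 difference -0.04 ± 0.12) and the NF-kB subunit Rela (10610 ± 1771 and 11710 ± 1866; 0.14 ± 0.08).

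IgA secretion had 7 of 10 genes measured and 0 called by limma at this threshold, with a median of -0.07. The most abundant were the secretory-cell factor Xbp1 (11130 ± 2391 and 10380 ± 664 normalized counts; log2 difference -0.07 ± 0.10) and the proteoglycan Sdc1 (12860 ± 2765 and 14320 ± 11000; -0.04 ± 0.20). The immunoglobulin genes of the list, chosen here after their values were seen, varied far more. Igha, the IgA heavy chain, had 48.1 ± 35.3 normalized counts in the WT mice and 18.4 ± 17.1 in the OE mice (log2 difference -1.64 ± 0.83), Jchain 101.5 ± 202.3 and 11.5 ± 10.5 (-1.23 ± 1.09) and Igkc 589.8 ± 1267 and 74.6 ± 60.3 (-0.84 ± 0.93). None of these was called, and Igha was lower in 5 of 7 pairs, Jchain in 4 and Igkc in 3. Over the 101 distinct genes of these lists, 7 were called, against 3.81% of all genes, and none had an adjusted p under 0.05.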

How the data were processed

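RNA-seq was performed on mammary epithelial cells of 7 WT and 7 OE mice (polyA libraries, paired reads of 75 bases). The authors mapped reads to mm10 with TopHat 2.0.10, counted fragments on GENCODE M21 genes with htseq-count (HTSeq 0.6.0), dropped genes that did not reach 10 fragments in 7 or more libraries, and deposited a signal, fragment counts divided by DESeq 1.18.0 size factors; no samples were pooled. In each library, 100.0% of values were whole multiples of 1 fragment (tolerance 0.01), so fragments and depth (20125106 to 41835978) were recovered. Depth limits Lyz1 and Pigr most, and each adds counting error to the spread between mice.

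Samples were grouped and paired by the labels and methods, which name littermates. limma 3.58.1 (R 4.3.3; lmFit, eBayes with trend) was fitted to all 16124 genes on log2(normalized count + 1), which understates changes of low genes, with the pair as a block, and p-values were adjusted by Benjamini-Hochberg. It stood in for the study's own per-gene paired test, kept as an alternative. Sign-flip tests used all sign patterns and correlations all pairings, two-sided. edgeR 4.0.16 (quasi-likelihood) and DESeq2 1.42.0 were run on recovered fragments, and the other alternatives changed the pseudocount, filter, trend, block, scaling or pairs. The tests were tested on simulated data. Genes named were the chosen genes, Usp22, the called or else the 2 most abundant genes of each list, and the 3 genes most alike to each chosen gene. The genes and lists were chosen with earlier results of these data known. Sequences came from RefSeq promoters (GRCm38.p6) and GENCODE M21 transcripts.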

Additional observations from a re-analysis of the deposited data

Results flagged for a closer look

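Each of the 8 genes was checked in both genotypes for a mouse that stood apart, by the gap to its nearest neighbour as a share of the range of its group on the log2(normalized count + 1) scale (Dixon's criterion at the 95% level, 7 mice). Of 16 groups, 3 had such a mouse, and chance gives about 1 in 20, or 0.8. Lyz2 in the OE mouse of pair 3 had 5600 normalized counts with 2227 in the nearest OE mouse (gap 0.614 on the log2 scale). Pigr in the WT mouse of pair 1 had 308.4 with 183.8 in the nearest (gap 0.741), and in the OE mouse of pair 4 it had 48.9 with 154.6 in the nearest (gap 0.622). On the linear scale, tried after seeing the data, the gaps were 0.775, 0.804 and 0.405, so that 2 of the 16 groups had such a mouse and the OE mouse of pair 4 did not stand apart. In pair 3 the macrophage score was higher in OE by 0.34 on the log2 scale, and in pair 4 it was lower by 0.67. In pair 1 the WT mouse had the highest lymphocyte and plasma cell scores of all 14 mice (7.17 and 10.98). The part of these cells in the values was not tested.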

How the results depend on the processing

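Lyz1 kept its direction and a p of 0.05 or less under all 11 alternatives (log2 difference -1.63 to -1.29, p 0.0001016 to 0.02625) and with each pair left out, and it stayed the only one of the 8 genes called under the 11 alternatives. With 1 pair left out, 1 to 3 of the 8 were called, the additional genes being Slpi and Lyz2 without pair 3. The exact sign-flip test called 0 to 1 gene with a pair left out: Lyz1 had p = 0.0625 without pair 1, 3, 4, 5, 6 or 8. Each of these settings kept pair 7, the only pair where Lyz1 rose. With a rise among the pairs left, 0.0625 is the smallest p that this test can give. These lost calls therefore do not measure how far Lyz1 depends on single pairs. Without the replicate block 182 genes of the table were called instead of 614, and leaving out pairs gave 381 (without pair 6) to 1366 (without pair 4). The genes called in the 5 lists, 7 in the main fit, were 11 with DESeq2 or quantile normalization, 4 with a mean of at least 50 and 3 without the block, and 5 to 11 with a pair left out. Genes with an adjusted p under 0.05 numbered 2, and 19 with DESeq2 or 0 with the study's own per-gene paired test. The luminal progenitor score was correlated with 1 to 4 of the 8 with a pair left out.

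Genes that were not called turned sign under some settings. With the macrophage score as a covariate, added after the data were seen, the log2 difference was 0.11 for Lcn2, 0.059 for Slpi, 0.13 for Cd14 and 0.078 for Pigr. With a pair left out the ranges were -0.21 to 0.078 for Lcn2, -0.58 to 0.075 for Ltf, -0.25 to 0.13 for Cd14 and -0.35 to 0.088 for Pigr. Without the block Il1b, Il6, Il17f, Osm and Muc1 lost their limma call, and the block changed no call among the 8 genes. The cause of these changes was not tested.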
